A study of Mus musculus with 16 samples.

Results

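H3K27ac peaks that lay away from promoters, overlapped an RNA polymerase II (RNAPOL2) peak and shared no base with the EWSR1::ATF1 (EA1) fusion were examined in mouse clear cell sarcoma (CCS) tumors. They are called RNAPOL2-only distal peaks here, meaning acetylated peaks with RNAPOL2 and without V5. The peaks were chosen by 3 calls. An H3K27ac peak had to lie outside the window of 3 kb around every transcription start site (TSS) of GENCODE vM21 (mm10), had to share at least 1 bp with an RNAPOL2 peak, and had to share no base with a V5 peak. Of 27552 H3K27ac peaks, 1387 met the rule (5.03%, Wilson 95% interval 4.78 to 5.3). They covered 2.49 Mb and made up 12.3% of the 11276 distal H3K27ac peaks.

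CCS is a soft tissue sarcoma driven by EA1, in which the activating part of EWSR1 is fused to the leucine zipper of the transcription factor ATF1. All tumors came from mice of mixed 129/SvJ and C57Bl/6 background that carried V5-tagged human EWSR1::ATF1 (type 1) cDNA at Rosa26 behind a loxP-flanked stop cassette, opened by hindlimb injection of TATCre, a Cre protein that enters cells. ChIP-seq was performed on snap-frozen whole tumors, with 4 labelled samples each for V5, RNAPOL2, H3K27ac and input, and every sample thus came from tumor tissue that expressed the fusion. No normal tissue was analysed here, the Rosa26 promoter and not the EWSR1 promoter drove the fusion, and whole tumors can hold stroma, vessels and muscle of the host.

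Each antibody is represented by 1 list of peaks, which held 27552 peaks for H3K27ac, 20375 for RNAPOL2 and 10665 for V5. The lists give a start, an end and a score for each peak, with no value per tumor and no read depth, so no spread between tumors could be measured. The study's text counts more EA1 binding sites than the V5 list holds, so a peak without V5 here means no overlap with this list and may still hold a site from that larger count. Tests count peaks, neighboring peaks are not independent, and the intervals cover counting error only. A mark carried strongly by few cells and a mark carried weakly by many cells cannot be told apart in such bulk tissue.

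Acetylation of histone H3 at lysine 27 marks active promoters and enhancers, the distal elements that raise transcription of genes at a distance. Polymerase found at a distal acetylated site can be polymerase that starts there, as it does at many enhancers and at unannotated promoters, or polymerase that travels through the body of a gene or past its end. The antibody used here binds phosphorylated RNAPOL2, the form that has left the preinitiation complex.

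RNAPOL2-only distal peaks were compared with 3 other groups of H3K27ac peaks. Acetylation-only distal peaks (n = 6263) shared no base with an RNAPOL2 or V5 peak. EA1-bound distal peaks with RNAPOL2 (n = 881) overlapped both. RNAPOL2 promoter peaks without V5 (n = 8482) lay within 3 kb of a TSS. Differences in shares were tested by Fisher's two-sided exact test, with Benjamini-Hochberg adjustment over 78 planned tests and, separately, over 14 tests added after the data were seen.

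Sequence was read from the plus strand of the RefSeq copy of GRCm38.p6, the assembly that mm10 names. The 3 sequences below are the central 200 bp of the RNAPOL2-only distal peaks with the highest H3K27ac scores that met CpG island criteria, defined as a GC content of at least 50% and an observed/expected CpG ratio of at least 0.6 in the central 500 bp. Capitals mark CpG dinucleotides, which are depleted from most of the mouse genome.
Pum2 upstream peak, chr12:8640941-8641140: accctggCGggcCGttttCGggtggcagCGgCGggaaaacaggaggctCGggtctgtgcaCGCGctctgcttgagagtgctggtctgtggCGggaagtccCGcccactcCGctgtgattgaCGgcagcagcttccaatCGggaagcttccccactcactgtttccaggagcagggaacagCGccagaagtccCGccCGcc
Wnt7b upstream peak, chr15:85634586-85634785: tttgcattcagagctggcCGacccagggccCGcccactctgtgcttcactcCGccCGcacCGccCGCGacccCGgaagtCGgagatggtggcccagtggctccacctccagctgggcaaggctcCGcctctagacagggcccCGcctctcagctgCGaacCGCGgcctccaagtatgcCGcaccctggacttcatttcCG
Prdm2 intron peak, chr4:143161831-143162030: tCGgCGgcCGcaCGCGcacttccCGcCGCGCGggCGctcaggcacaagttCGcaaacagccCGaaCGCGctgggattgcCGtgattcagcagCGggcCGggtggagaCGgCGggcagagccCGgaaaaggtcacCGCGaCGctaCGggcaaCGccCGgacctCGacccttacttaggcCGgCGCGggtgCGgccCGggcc

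The first lies in intergenic sequence, 33093 bp upstream of the start of Pum2, and its 200 bp hold 16 CpG dinucleotides. The second also holds 16 and lies 52213 bp upstream of Wnt7b, with a RefSeq start of the gene D130051D11Rik inside the peak. The third lies in an intron of Prdm2, with a RefSeq start of that gene inside the peak, and holds 32.

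The next 3 sequences come from the RNAPOL2-only distal peaks of highest H3K27ac score whose central 200 bp held the AP1 motif TGAGTCA on either strand. Windows of more than 25% repeat-masked bases and annotated UTRs were passed over. Capitals mark the motif, which is bound by JUN and FOS dimers and is common in enhancers.
Peak past the Pigv gene end, chr4:133660121-133660320: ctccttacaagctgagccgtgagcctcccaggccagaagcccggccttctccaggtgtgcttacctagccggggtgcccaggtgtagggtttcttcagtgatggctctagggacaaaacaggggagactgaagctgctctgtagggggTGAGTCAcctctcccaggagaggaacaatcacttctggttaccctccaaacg
Cd9 downstream peak, chr6:125426466-125426665: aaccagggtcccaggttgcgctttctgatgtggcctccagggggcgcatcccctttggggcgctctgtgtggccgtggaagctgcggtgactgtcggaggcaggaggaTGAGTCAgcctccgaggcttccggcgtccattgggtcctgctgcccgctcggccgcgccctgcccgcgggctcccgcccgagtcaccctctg
Hook2 upstream peak, chr8:84985246-84985445: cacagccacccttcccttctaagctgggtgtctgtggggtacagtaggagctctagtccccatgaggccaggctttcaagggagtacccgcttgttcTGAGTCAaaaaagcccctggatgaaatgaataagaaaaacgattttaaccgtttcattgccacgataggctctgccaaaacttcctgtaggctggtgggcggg

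The third set holds the ATF/CREB motif TGACGTCA, the palindrome bound by ATF1, in peaks with no V5 peak over them. The 3 of highest H3K27ac score and the 1 in Col1a2 are shown in 40 bp of sequence, and capitals mark the motif. The Col1a2 peak was chosen after its values were seen.
Scd2 upstream peak, chr19:44282793-44282832: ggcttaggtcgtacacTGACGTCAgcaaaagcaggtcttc
Vgll4 intron peak, chr6:114883373-114883412: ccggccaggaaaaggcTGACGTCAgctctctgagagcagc
Ubl4b downstream peak, chr3:107537412-107537451: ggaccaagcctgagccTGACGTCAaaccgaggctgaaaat
Col1a2 coding exon peak, chr6:4524431-4524470: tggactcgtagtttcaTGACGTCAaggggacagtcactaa

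In the central 500 bp, 12 of 1387 RNAPOL2-only distal peaks held TGACGTCA (0.865%), and over their whole width 22 did (1.59%). The distance from these 4 peaks to the nearest V5 peak was 12540 bp at Scd2, 6180 bp at Vgll4, 158240 bp at Ubl4b and 106380 bp at Col1a2.

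Width and score go with the rule, because a wide or strong peak overlaps other lists more readily, and are given as description. RNAPOL2-only distal peaks had a median width of 1450 bp (quartiles 980 and 2230), between the 950 bp of acetylation-only distal peaks and the 2890 bp of EA1-bound distal peaks with RNAPOL2. Their median H3K27ac score was 177, where acetylation-only distal peaks had 82, EA1-bound distal peaks with RNAPOL2 had 463 and promoter peaks had 659. Their median RNAPOL2 score of 107 resembled the 98 of the EA1-bound distal peaks, whereas promoter peaks had 671. These are scores of peaks from the same 2 lists that chose the groups, so the order was not tested.

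RNAPOL2 covered a median of 63.3% of each peak (quartiles 41.2 and 93.3) and reached the middle base in 1153 peaks (83.1%). In 312 peaks (22.5%) the whole acetylated peak lay inside RNAPOL2. In 149 peaks (10.7%) the overlapping RNAPOL2 peak was itself long enough to reach a promoter window, and those peaks met the rule all the same. Among fusion-free distal H3K27ac peaks, 18.1% (17.3 to 19) overlapped RNAPOL2. By quintile of H3K27ac score this share was 9.08% in the lowest and 45.5% in the highest.

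The limits of the rule were close for few peaks. The nearest peak kept lay 3001 bp from a TSS, in 1700066B19Rik, and the nearest left out lay 2988 bp away, in Ttc7. A peak in Lman2 abutted a V5 peak and was kept, and 3 peaks kept lay within 100 bp of V5, whereas the smallest overlap that excluded a peak was 20 bp, at a coding exon of Notch2. The smallest overlap with RNAPOL2 was 10 bp, shared by 4 peaks, 1 of them 262264 bp upstream of Nfe2l3, and 13 peaks shared under 100 bp. The acetylation-only peak nearest to RNAPOL2 lay 40 bp away, in an intron of Agpat4.

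The position of the peaks was measured to ask whether polymerase at distal acetylation follows genes. Of the RNAPOL2-only distal peaks, 916 (66%) overlapped a gene, compared with 61.9% of acetylation-only and 65% of EA1-bound distal peaks with RNAPOL2, where all distal H3K27ac peaks gave 60.5%. The odds ratio was 1.2 (95% interval 1.06 to 1.35, adjusted exact p = 0.0109) against the first and 1.05 (0.875 to 1.25, adjusted exact p = 0.735) against the second. The ratio against acetylation-only distal peaks varied with the peaks admitted. It was 1.4 (1.22 to 1.6) over strata of H3K27ac width and score and 1.37 (1.22 to 1.53) with coding TSSs only. With only the upper 50% of RNAPOL2 peaks by score, the odds ratio turned to 0.671 (0.54 to 0.835, exact p = 4.00e-04), and with only the upper 50% of H3K27ac peaks it was 0.986 (0.786 to 1.24, exact p = 0.908). Without the 10 genes that held the most RNAPOL2-only distal peaks it was 1.06 (0.939 to 1.21), and over deciles of TSS distance it was 1.13 (0.996 to 1.27).

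Exons set the 2 fusion-free groups further apart than gene bodies did. An annotated exon was overlapped by 277 RNAPOL2-only distal peaks (20%) and by 8.57% of acetylation-only distal peaks, beside 11.4% of all distal peaks (odds ratio 2.66, 2.27 to 3.12, adjusted exact p = 7.65e-30). Strata of H3K27ac width and score left the ratio at 2.59 (2.17 to 3.08), and the middle base alone, which is free of width, gave 2.55 (2 to 3.24). Coding sequence was overlapped by 13.2% against 5.56%, beside 7.5% of all distal peaks (odds ratio 2.58, 2.14 to 3.12, added test, adjusted exact p = 3.86e-20). The 3′ UTR showed the larger ratio, with 145 peaks (10.5%) against 2.63%, beside 4.08% of all distal peaks (odds ratio 4.31, 3.42 to 5.44, added test, adjusted exact p = 3.24e-31). EA1-bound distal peaks with RNAPOL2 overlapped a 3′ UTR in 8.51% (odds ratio 1.25, 0.936 to 1.68, added test, adjusted exact p = 0.165). Exon overlap was 22.5% for EA1-bound distal peaks with RNAPOL2, with an odds ratio of 0.861 (0.701 to 1.06, added test, adjusted exact p = 0.165).

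RNAPOL2-only distal peaks were more frequent around the ends of genes. The stretch up to 5 kb past the end of a protein-coding gene, with no gene over the peak's middle, held 152 peaks (11%) and 3.4% of acetylation-only distal peaks, beside 4.12% of all distal peaks (odds ratio 3.5, 2.81 to 4.34, adjusted exact p = 3.55e-26). Against EA1-bound distal peaks with RNAPOL2, of which 5.9% lay there, the odds ratio was 1.96 (1.41 to 2.72, added test, adjusted exact p = 5.54e-05). Counting both sides of the nearest coding gene end, 311 peaks (22.4%) lay within 5 kb, compared with 6.99% of acetylation-only distal peaks, with no test. EA1-bound distal peaks with RNAPOL2 had 6.02% in the 5 kb before the end and 6.36% in the 5 kb past it, where RNAPOL2-only distal peaks had 8.94% and 13.5%. Farther past the end, the shares of RNAPOL2-only and acetylation-only distal peaks were 3.97% and 4.06% at 5 to 10 kb, 5.48% and 6.67% at 10 to 20 kb, and 7.86% and 10.3% at 20 to 50 kb, with no test. Inside coding genes, 25.5% of the RNAPOL2-only distal peaks fell in the last 20% of the gene and 13.1% in the first 20%, where acetylation-only distal peaks gave 16.5% and 18.3%. EA1-bound distal peaks with RNAPOL2 gave 26.7% and 14.6%.

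**Figure D1:**
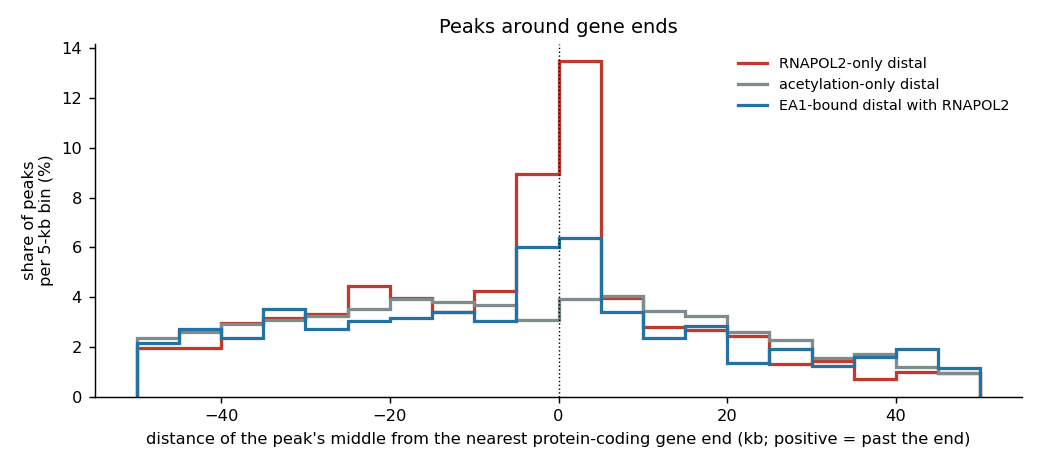
Share of peaks (%) per 5-kb bin of the distance (kb) between a peak's middle and the nearest protein-coding gene end, positive past the end, for RNAPOL2-only (red), acetylation-only (gray) and EA1-bound distal peaks with RNAPOL2 (blue). The red line stands above both others in the 2 bins beside the end, at 8.94% before it and 13.5% past it, and the gray line has no rise there.

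The gene-end peaks of highest H3K27ac score, named after their values were seen, lay past Tmem44, Dnajb12 and Pigv. The peak 879 bp past the end of Tmem44, a membrane protein gene, had an H3K27ac score of 1306 and lay over a compact RNAPOL2 peak of 890 bp with a score of 1402. The peak past Dnajb12, a chaperone gene, was 5600 bp wide and had scores of 1152 for H3K27ac and 990 for RNAPOL2. The peak 166 bp past Pigv, whose product works in GPI anchor synthesis, scored 1120 and 201 and is the first of the AP1 sequences above. As a group, the gene-end peaks had a median H3K27ac score of 116 and a median RNAPOL2 score of 127, where the other RNAPOL2-only distal peaks had 182 and 107.

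Polymerase at the promoter of the gene that held the peak was then examined. The rule had split the fusion-free groups by the same RNAPOL2 list, so a difference between them is given as description. Of 868 RNAPOL2-only distal peaks inside a protein-coding gene, 815 (93.9%) lay in a gene with RNAPOL2 at 1 or more of its promoter windows, compared with 87% of 3551 acetylation-only distal peaks and 87.7% of all distal peaks in coding genes (odds ratio 2.3, 1.71 to 3.09, adjusted exact p = 7.49e-09). For EA1-bound distal peaks with RNAPOL2 it was 94.4% of 521, a difference that was not tested. The ratio was 2.05 (1.52 to 2.77) once RNAPOL2 peaks that reached a promoter window were set aside. It was not found among strong RNAPOL2 peaks, with 0.997 (0.624 to 1.59, exact p = 1) for the upper 50% by score, and did not pass for the upper 50% of H3K27ac peaks, with 1.44 (0.843 to 2.47, exact p = 0.218).

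The other 53 peaks lay in 46 coding genes without RNAPOL2 at any promoter window, and 29 of those genes had no promoter H3K27ac either. Batf, which encodes an AP1-family leucine zipper protein, held 2 such peaks with a highest H3K27ac score of 738 and RNAPOL2 score of 1407, and its promoter window carried H3K27ac without RNAPOL2. Ccdc60 held 4, with scores of up to 479 and 157. Pomc, the precursor of melanocortin hormones, held 1 with scores of 298 and 805, and Syp, which encodes a synaptic vesicle protein, held 1 with 477 and 571. The promoter windows of Pomc and Syp carried neither mark. Batf is on a fixed list of genes, and the other 3 were named after their values were seen.

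**Figure D2:**
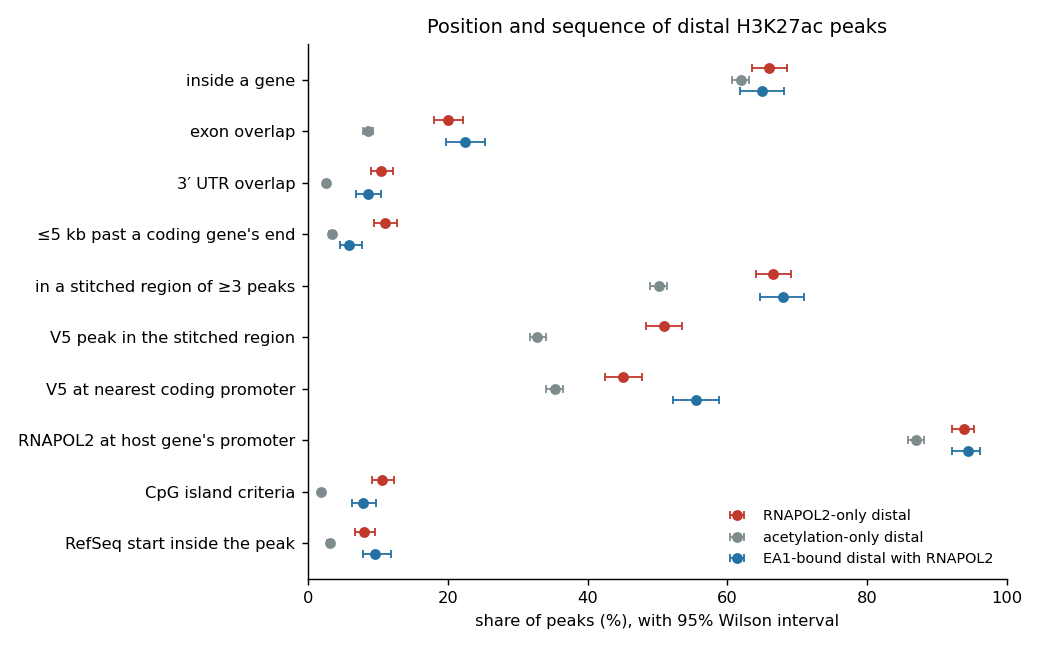
Share of peaks (%) with each position or sequence feature, with Wilson 95% intervals, for RNAPOL2-only (red), acetylation-only (gray) and EA1-bound distal peaks with RNAPOL2 (blue, left out for V5 in the stitched region, which its own V5 peak fixes). RNAPOL2 at the host promoter is counted over peaks in coding genes. Red lies to the right of gray in every line, by the smallest margin for position inside a gene (66% and 61.9%).

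These peaks shared no base with a V5 peak by the rule, so V5 peaks in the neighborhood were counted. Neighboring H3K27ac peaks were joined into stitched regions over the gap customary at the start of a super enhancer call. Of the RNAPOL2-only distal peaks, 924 (66.6%) lay in a region of at least 3 peaks, compared with 50.2% of acetylation-only distal peaks, beside 51.6% of all distal peaks (odds ratio 1.98, 1.76 to 2.24, adjusted exact p = 2.92e-28). EA1-bound distal peaks with RNAPOL2 gave 67.9% (odds ratio 0.944, 0.789 to 1.13, added test, adjusted exact p = 0.551). A V5 peak lay elsewhere in the region of 706 (50.9%) and of 32.8% (odds ratio 2.12, 1.89 to 2.39, adjusted exact p = 1.27e-34), beside 56.6% of all distal peaks, a share that includes peaks bound by EA1 themselves. Within regions of at least 3 peaks the second ratio was 1.86 (1.59 to 2.18). Both ratios were smaller among the upper 50% of H3K27ac peaks by score, at 1.18 (0.935 to 1.48, exact p = 0.176) and 1.27 (1.01 to 1.6, exact p = 0.0505).

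Promoters nearby held EA1 more often as well. The nearest protein-coding promoter overlapped V5 for 626 RNAPOL2-only distal peaks (45.1%) and for 35.3% of acetylation-only distal peaks, beside 40.1% of all distal peaks (odds ratio 1.51, 1.34 to 1.7, adjusted exact p = 5.05e-11). For EA1-bound distal peaks with RNAPOL2 it was 55.5% (odds ratio 0.659, 0.556 to 0.781, added test, adjusted exact p = 4.74e-06). The rule split those peaks off by the same V5 list, so this difference is given as description. The promoter of the host gene held V5 for 463 of 868 RNAPOL2-only distal peaks (53.3%) and for 35.6% of acetylation-only distal peaks, beside 42.3% of all distal peaks in coding genes (odds ratio 2.07, 1.78 to 2.4, added test, adjusted exact p = 1.75e-20). EA1-bound distal peaks with RNAPOL2 gave 60.8% (odds ratio 0.736, 0.59 to 0.917, added test, adjusted exact p = 0.0102), again as description. From RNAPOL2-only distal peaks the distance to the nearest V5 peak had a median of 21410 bp (quartiles 7060 and 68630), and 18.1% of them had V5 within 5 kb, where 15.2% of acetylation-only distal peaks did. Without any peak that had V5 within 5 kb, the ratio for the nearest promoter was 1.43 (1.25 to 1.63). Among the upper 50% of H3K27ac peaks by score it was 1.1 (0.867 to 1.4, exact p = 0.464) and did not pass.

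Many peaks shared a gene. The 1387 peaks were hosted by or nearest to 1018 of 21938 protein-coding genes (4.64%). Of these genes 250 had 2 or more peaks, 25 had 5 or more and 9 had 10 or more. Promoter H3K27ac and RNAPOL2 were both found at 81.8% of the 1018 genes and at 52.2% of all coding genes. Counted by peak, the nearest coding promoter held RNAPOL2 for 86.3% of RNAPOL2-only and 81.5% of acetylation-only distal peaks, beside 81.7% of all distal peaks. The RNAPOL2-only distal peaks fell into 1005 stitched regions, and 596 shared a region with another RNAPOL2-only distal peak.

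The 10 genes with the most peaks were 81.5 to 1504 kb long, and 9 of them carried EA1 at a promoter window, as did 37.6% of the 1018 genes and 16.6% of all coding genes. Long genes have more room for peaks, and these 10 were picked for their number of peaks, so nothing is read from that count. Zmiz1, a transcriptional coregulator gene of 208 kb on chromosome 14, had 17 peaks, all in its body, with H3K27ac scores of 34 to 777 and RNAPOL2 scores of 39 to 294. Fyn, a Src-family kinase gene, had 14, and Rab3c, which encodes a small GTPase of vesicle transport, had 13 and no promoter V5. Adgrd1 (an adhesion G protein-coupled receptor) and Celf4 (an RNA-binding protein) had 11 each. Mdfic, Myo10, an unconventional myosin of filopodia, and Pde4d, a cAMP phosphodiesterase, had 10 each.

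RNAPOL2 took different shapes over these genes. A single RNAPOL2 peak of 114 kb with a score of 2936 ran over the whole of Adgrd1 and held all of its 11 peaks. In Mdfic a peak of 41.5 kb held 6 and another of 52.6 kb held 3, and in Myo10 RNAPOL2 peaks of 71.1, 56.5 and 41.6 kb held 3 each. The 17 peaks of Zmiz1 lay over 18 separate RNAPOL2 peaks of 530 to 8120 bp, and the highest RNAPOL2 score among them was 294. Of 1394 RNAPOL2 peaks that touched an RNAPOL2-only distal peak, 56 touched 2 or more. The 190 peaks under RNAPOL2 of 5 kb or more had a median H3K27ac score of 74, where all RNAPOL2-only distal peaks had 177. Of these 190, 78.9% shared a stitched region with V5 and 80% lay in a region of at least 3 peaks, compared with 50.9% and 66.6% of all RNAPOL2-only distal peaks, with no test.

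**Figure D3:**
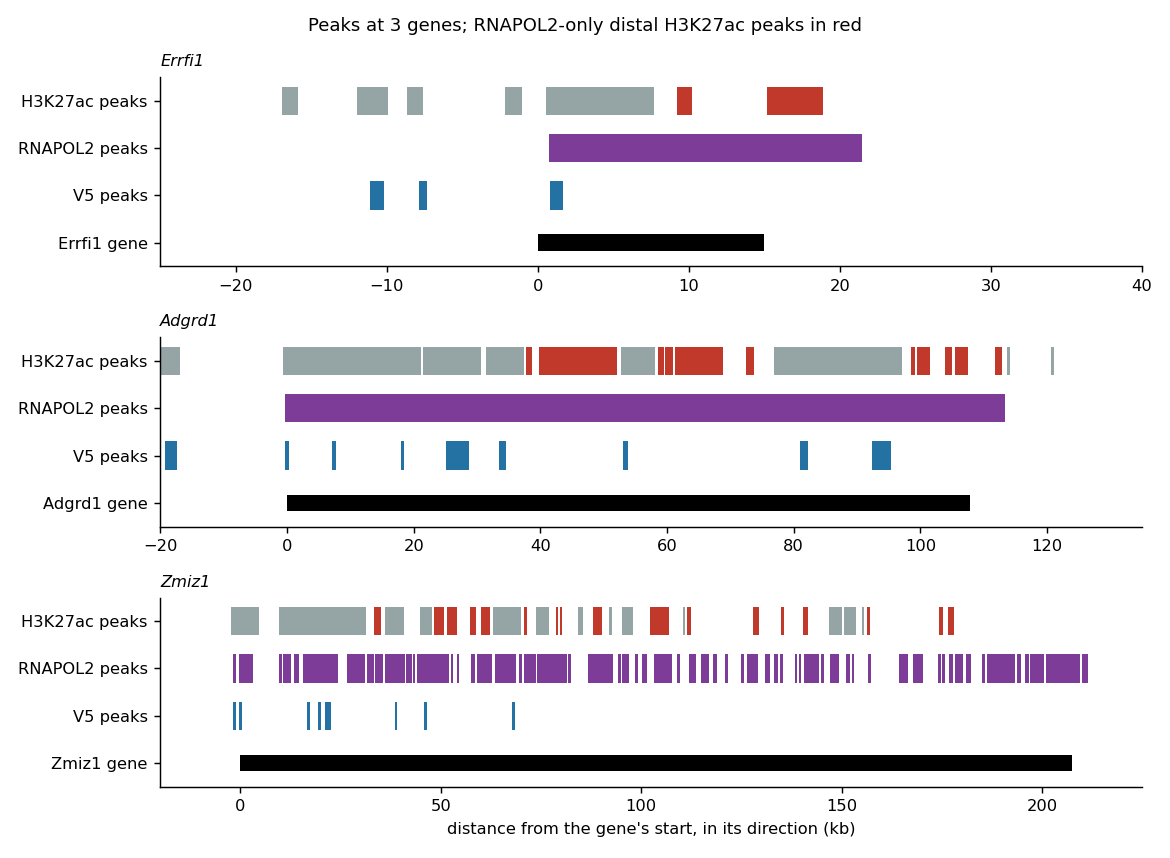
Peaks of the 3 lists along Errfi1, Adgrd1 and Zmiz1, drawn by distance (kb) from each gene's start in its direction, with RNAPOL2-only distal H3K27ac peaks in red, other H3K27ac peaks in gray, RNAPOL2 in purple, V5 in blue and the gene in black. One RNAPOL2 peak underlies the 2 red peaks at Errfi1 and the 11 at Adgrd1, whereas 60 RNAPOL2 peaks are drawn around the 17 red peaks of Zmiz1.

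By H3K27ac score, 4 RNAPOL2-only distal peaks were among the 1000 highest of the whole list. The highest, chr12:8640431-8641650 upstream of Pum2, had an H3K27ac score of 5270, which ranked 142 of 27552, and an RNAPOL2 score of 448. It stood alone, with no other H3K27ac peak in its stitched region and its nearest V5 peak 32230 bp away. The next were chr2:30689951-30694850, beyond Cstad, with scores of 3201 and 2753, and chr15:101973591-101979080, upstream of the keratin gene Krt78, with 3013 and 262. A peak 15199 bp past the start of Btg2, an antiproliferative gene, had 2967 and 1314. The Wnt7b and Prdm2 peaks printed above had 2698 and 1938, and 2685 and 2667.

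The 6 peaks of highest RNAPOL2 score lay inside genes, past gene ends or between genes, and none was among those of highest H3K27ac score. Errfi1, which encodes an inhibitor of EGF receptor signaling, had an RNAPOL2 peak of 20700 bp with a score of 12793 that ran past the gene end. One RNAPOL2-only distal peak in its intron had an H3K27ac score of 41, and another past its end had 249. A peak at chr19:5817101-5818910, for which Frmd8 is the nearest coding gene, lay under RNAPOL2 of 34650 bp with a score of 8999 and had an H3K27ac score of 953. Past the end of Btg2 an RNAPOL2 score of 8815 met an H3K27ac score of 49, and in Frmd6, a FERM domain gene, 6995 met 57 and 41. All 4 of these RNAPOL2 peaks reached a promoter window.

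The widest peak covered 12350 bp of Adgrd1, exon sequence included, with its middle in an intron (H3K27ac score 203). It was followed by 10350 bp in Iqsec1, 10020 bp in the noncoding genes A630001O12Rik and Gm31718, and 9590 bp at 120418 bp upstream of Klf14, a zinc finger gene whose promoter window carried none of the 3 marks. In Iqsec1 the RNAPOL2 peak covered only 710 bp of the acetylation, and at Klf14 it covered all of it. The peaks farthest from any TSS lay inside long genes, 171942 bp away in Rad51b, a DNA repair gene, and 171299, 161799 and 157159 bp away in Rab3c.

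Of the planned features, CpG-rich sequence gave the largest odds ratio against acetylation-only distal peaks. CpG island criteria were met by 147 RNAPOL2-only distal peaks (10.6%) and by 1.85% of acetylation-only distal peaks, beside 3.02% of all distal peaks (odds ratio 6.28, 4.89 to 8.07, adjusted exact p = 2.35e-43). EA1-bound distal peaks with RNAPOL2 gave 7.83% (odds ratio 1.4, 1.03 to 1.88, adjusted exact p = 0.0646) and promoter peaks 67.9% (odds ratio 0.056, 0.0469 to 0.0669). Read the other way, 55.9% of the fusion-free distal peaks that met the criteria overlapped RNAPOL2, compared with 16.8% of those that did not. The ratio was 5.48 (4.04 to 7.42) over strata of H3K27ac width and score, and 16.1 (11.8 to 22) for the upper 50% of RNAPOL2 peaks.

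Starts of RefSeq transcripts, which the rule did not use, were counted. A RefSeq start lay inside 111 RNAPOL2-only distal peaks (8%), compared with 3.07% of acetylation-only distal peaks, beside 4.05% of all distal peaks (odds ratio 2.75, 2.16 to 3.5, added test, adjusted exact p = 2.13e-14). Wider peaks can hold more starts, and over strata of H3K27ac width and score the ratio was 1.66 (1.26 to 2.18). EA1-bound distal peaks with RNAPOL2 gave 9.65%, a difference that was not tested. Within 3 kb of the peak one was found for 15.3% and 11%, beside 11% of all distal peaks (odds ratio 1.45, 1.23 to 1.72, added test, adjusted exact p = 3.66e-05). The CpG result was as large without peaks near a RefSeq start, with an odds ratio of 6.12 (4.51 to 8.3).

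Among RNAPOL2-only distal peaks, the 147 that met CpG island criteria differed from the other 1240 in position. They were less often inside a gene (42.2% against 68.9%, odds ratio 0.33, 0.233 to 0.467) and less often in a region of at least 3 peaks (37.4% against 70.1%, odds ratio 0.255, 0.179 to 0.364). A V5 peak shared the region of 23.1% against 54.2% (odds ratio 0.254, 0.171 to 0.379), and the median distance to V5 was 71700 bp against 18835 bp. A RefSeq start lay inside 26.5% against 5.81% (odds ratio 5.86, 3.79 to 9.07). These 4 differences passed at adjusted exact p of 1.00e-09 or less over 11 tests added after the data were seen. The CpG criteria were measured in the same 500 bp as the motifs and set their base composition, so motif shares are given as description. The ETS motif CCGGAAG, which itself contains CpG, was held by 19.7% against 4.19%, and AP1 by 6.12% against 14.9%. Exon overlap was 21.8% against 19.8% (odds ratio 1.13, 0.746 to 1.71, adjusted exact p = 0.585). Their median RNAPOL2 score was 278, compared with 98.

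**Figure D4:**
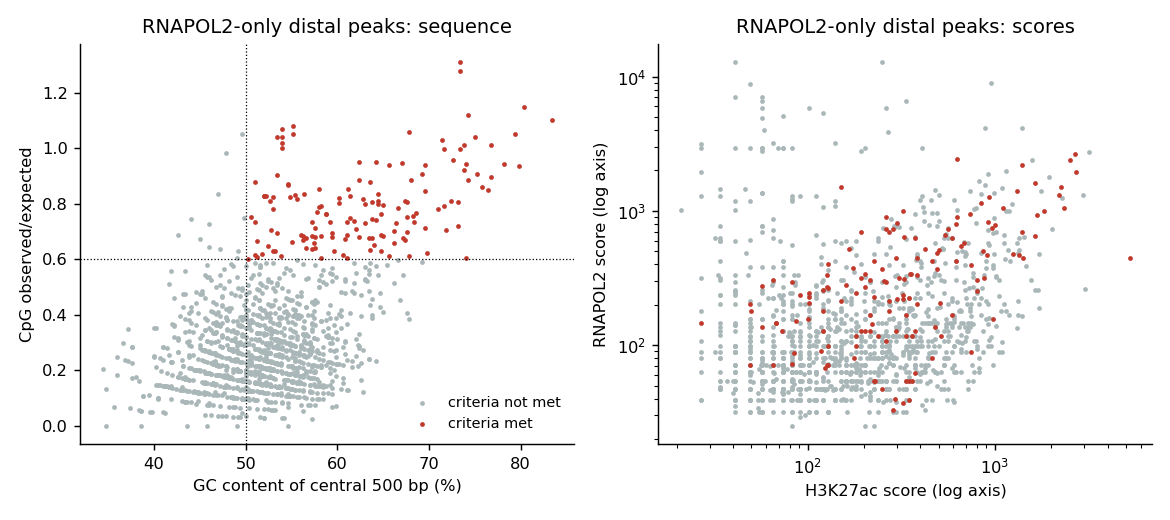
Left, GC content (%) against the observed/expected CpG ratio of the central 500 bp of each RNAPOL2-only distal peak, with dotted lines at the criteria of 50% and 0.6. Right, H3K27ac score against RNAPOL2 score of the same peaks (log axes), with the 147 that met the criteria in red and the other 1240 in gray. The red points form a minority at high CpG content, and the highest RNAPOL2 scores, up to 12793, belong to gray points.

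A set of 21 motifs and strings of TGA or TCA repeats were searched on both strands of the central 500 bp. The strings were runs of at least 5 TGA or TCA units, each no more than 5 bp from the next, and can overlap the ATF/CREB and AP1 motifs. Of 22 searches, 4 were more frequent and 3 less frequent in RNAPOL2-only than in acetylation-only distal peaks. The GC box GGGCGGG, bound by SP factors, was held by 267 (19.3%) and 9.05%, beside 9.28% of all distal peaks (odds ratio 2.39, 2.04 to 2.81, adjusted exact p = 4.11e-24). The ETS motif CCGGAAG was held by 81 (5.84%) and 3.69%, beside 3.49% of all distal peaks (odds ratio 1.62, 1.25 to 2.1, adjusted exact p = 0.00151). The E-box CACGTG gave 8.07% and 6.32%, beside 6.92% (odds ratio 1.3, 1.05 to 1.62, adjusted exact p = 0.0422), and the TFAP2 motif GCCNNNGGC gave 21.1% and 18%, beside 16.7% (odds ratio 1.21, 1.05 to 1.4, adjusted exact p = 0.021). Over quintiles of GC content the ratio was 1.84 (1.55 to 2.17) for the GC box, 1.32 (1.01 to 1.73) for ETS, 1.2 (0.965 to 1.5) for CACGTG and 0.946 (0.813 to 1.1) for TFAP2. Of these 4, the GC box alone still passed after adjustment over those strata.

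The AP1, TEAD and SOX motifs were less frequent. AP1 was held by 194 RNAPOL2-only distal peaks (14%) and by 17.5% of acetylation-only distal peaks, beside 16.7% of all distal peaks (odds ratio 0.769, 0.652 to 0.907, adjusted exact p = 0.0046). The ratio over quintiles of GC content was 0.774 (0.655 to 0.915). Over the whole peak it turned to 1.21 (1.07 to 1.37, exact p = 0.00333), a search in which wider peaks hold more sequence. The TEAD motif GGAATG gave 25.5% and 29.2%, beside 28.5% (odds ratio 0.827, 0.724 to 0.944, adjusted exact p = 0.0112), and the SOX motif AACAAAG gave 10.8% and 13.6%, beside 13% (odds ratio 0.768, 0.639 to 0.923, adjusted exact p = 0.0112). Over GC quintiles the ratios were 0.831 (0.727 to 0.95) for TEAD and 0.846 (0.702 to 1.02) for SOX. Neither passed after adjustment over the 20 searches other than AP1 and TGACGTCA, and the result for TEAD depends on that choice of searches. Promoter peaks held AP1 in 4.85% (odds ratio 3.19, 2.66 to 3.83), and EA1-bound distal peaks with RNAPOL2 in 17.3% (odds ratio 0.78, 0.619 to 0.983, adjusted exact p = 0.0671).

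The motifs of the fusion were set against EA1-bound distal peaks with RNAPOL2. The rule split these groups by V5 overlap, so a lower share of these motifs can come from the selection and is given as description. TGACGTCA was held by 0.865% and 3.18%, beside 1.14% of all distal peaks (odds ratio 0.266, 0.134 to 0.526, adjusted exact p = 3.16e-04). Its variants TGANNTCA, without TGACGTCA itself, were held by 18.6% and 23.6%, beside 22% (odds ratio 0.739, 0.602 to 0.909, adjusted exact p = 0.0112), and the TGA or TCA strings by 2.45% and 5.11%, beside 3.49% (odds ratio 0.467, 0.297 to 0.735, adjusted exact p = 0.00265). Against acetylation-only distal peaks, which also lack V5, TGACGTCA gave an odds ratio of 1.81 (0.926 to 3.55, adjusted exact p = 0.16), and the variants gave 0.922 (0.795 to 1.07, adjusted exact p = 0.378). The strings were held by 2.91% of acetylation-only distal peaks (odds ratio 0.84, 0.579 to 1.22, adjusted exact p = 0.52). Over the whole peak, where wider peaks hold more sequence, TGACGTCA gave 1.89 (1.14 to 3.12, unadjusted exact p = 0.0155). Among the upper 50% of H3K27ac peaks its ratio in the central 500 bp turned to 0.932 (0.232 to 3.75, exact p = 1). In the central 500 bp, the interval of the first allows up to 3.55 times the odds, since only 12 and 30 peaks held the motif.

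**Figure D5:**
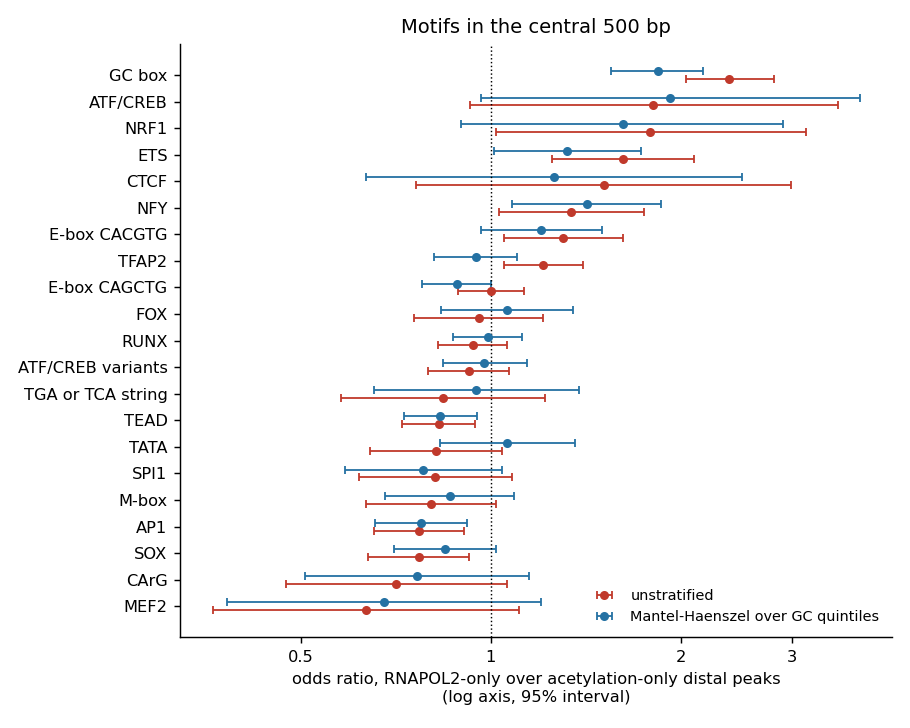
Odds ratios (log axis, with 95% intervals) of holding each motif in the central 500 bp, RNAPOL2-only over acetylation-only distal peaks, unstratified (red) and over quintiles of GC content (blue). Among unstratified ratios the GC box stands farthest to the right (2.39, and 1.84 over GC quintiles), AP1 lies left of 1 in both (0.769 and 0.774), and the CEBP motif TTGCGCAA, held by 3 RNAPOL2-only distal peaks, is not drawn.

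The remaining motifs did not pass against acetylation-only distal peaks. They were RUNX (TGTGGT), SPI1 (GAGGAAGT), NFY (CCAATCA), NRF1 (GCGCATGC), the E-box CAGCTG, the M-box TCATGTG, FOX (TGTTTAC), CEBP, the box of core promoters with the letters TATAAAA, MEF2, CArG and CTCF. NRF1 gave 1.23% and 0.687%, beside 0.807% of all distal peaks (odds ratio 1.79, 1.02 to 3.16, adjusted exact p = 0.0766). NFY gave 5.34% and 4.02%, beside 4.43% (odds ratio 1.34, 1.03 to 1.75, adjusted exact p = 0.0646), and its ratio was 1.42 (1.08 to 1.86) over GC quintiles.

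Chromosome X held 25 RNAPOL2-only distal peaks (1.8%), compared with 0.639% of acetylation-only distal peaks, beside 0.665% of all distal peaks (odds ratio 2.86, 1.73 to 4.72, adjusted exact p = 3.61e-04). Only 1 of the 881 EA1-bound distal peaks with RNAPOL2 lay there (odds ratio 16.2, 2.18 to 119, added test, adjusted exact p = 9.25e-05). Of the whole lists, 1.56% of H3K27ac, 1.71% of RNAPOL2 and 0.609% of V5 peaks were on X. The EA1-bound group was chosen by V5, so nothing is read from the ratio against it. Bcor, an X-linked corepressor gene, had 4 of the 25, with H3K27ac scores of 384 to 762. Chromosome Y held 7 RNAPOL2-only distal peaks and 1 acetylation-only distal peak.

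Genes of 12 fixed lists were examined by role, and 37 of 202 listed genes hosted or were nearest to at least 1 RNAPOL2-only distal peak, beside 4.64% of all coding genes. The lists hold well-known and often active genes, so the share of genes with an acetylation-only distal peak is given as well, which was 15.4% over all coding genes. Among AP1 and ATF/CREB factors, 10 of 22 had a peak (45.5%), and 40.9% had an acetylation-only distal peak. Creb3l2, a membrane-bound CREB-family factor, had 8, of which 7 lay in its body, with H3K27ac scores of up to 261, and its promoter carried no V5. Bach1, a leucine zipper repressor, had 5, Batf and Creb1 had 2 each, and Fos, Fosb, Jun, Crem, Creb5 and Creb3l1 had 1 each. The peak assigned to Jun as the nearest coding gene lay 109309 bp upstream of its start and had an H3K27ac score of 930. It overlapped a gene that is not protein-coding, and no distance limit was set for the nearest gene. The peak at Crem lay 5867 bp in and had 65 beside an RNAPOL2 score of 866.

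Neural crest and mesenchymal transcription factors had a peak in 6 of 18 genes (33.3%), and acetylation-only distal peaks in 61.1%. Tcf4 had 3, Runx1 and Nfia had 2 each, and Prrx1, Zeb1 and Tead1 had 1. Nfia, a nuclear factor I gene, had the highest H3K27ac score among them, 870. Growth control genes had a peak in 6 of 22 (27.3%), beside 68.2% with an acetylation-only distal peak. Igf1r, a growth factor receptor that signals for survival, had 5, all in its body, with scores of up to 397. Smad3 had 2, and Mcl1, Fgfr1, Klf4 and Klf6 had 1 each. Among genes of the actin cytoskeleton and SRF or YAP targets, 5 of 22 had a peak, among them Myh9, a nonmuscle myosin gene, with 3, Ahnak with 2, and Actb and Tpm4 with 1 each. Acetylation-only distal peaks were found at 54.5% of that list. Of 10 genes that host long noncoding RNAs or small RNAs, Vmp1 had 1, and 10% had an acetylation-only distal peak.

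Melanocyte genes, which are characteristic of CCS, had a peak in 1 of 16 genes, and acetylation-only distal peaks in 25%. It lay 37302 bp from the start of Dct, a melanin synthesis enzyme, with scores of 334 and 168. Promoter H3K27ac was found at 5 of these 16 genes and at 4 together with RNAPOL2, beside 52.2% of all coding genes with both. Most of the list thus had no promoter H3K27ac.

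Lists for other cells that a limb tumor can hold were examined in the same way. Genes of skeletal muscle (0 of 20), macrophages and other leukocytes (0 of 18) and adipocytes (0 of 9) had no RNAPOL2-only distal peak, whereas acetylation-only distal peaks were found at 15%, 38.9% and 0% of these lists. Promoter H3K27ac with RNAPOL2 was found at 3 of 20, 9 of 18 and 2 of 9 genes of these lists, beside 52.2% of all coding genes. Endothelial and pericyte genes had a peak in 2 of 15 (Pecam1 and Eng), with H3K27ac scores of 297 and 91, and Schwann cell genes in 1 of 10 (Pmp22), beside 53.3% and 30% with an acetylation-only distal peak. Fibroblast and matrix genes had a peak in 5 of 20 (25%), beside 45% with an acetylation-only distal peak. Col1a2, a collagen I chain gene, had 5, with scores of up to 705, under an RNAPOL2 peak of 33.6 kb for 3 of them. Col1a1 had 2, and Sparc, Dcn and Timp2 had 1 each, with 1344 near Dcn at a distance of 166143 bp. V5 lay at a promoter window of 1 of the 20 matrix genes, 1 of the 10 Schwann cell genes, 1 of the 16 melanocyte genes and 0 genes of the muscle, leukocyte, adipocyte and endothelial lists. It lay at 16 of 22 AP1 and ATF/CREB genes, 11 of 22 growth control genes, 10 of 22 cytoskeletal genes, 9 of 18 neural crest and mesenchymal factors and 6 of 10 noncoding RNA hosts, beside 16.6% of all coding genes. The part of host stroma in the matrix-gene peaks was not tested.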

How the data were processed

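The authors profiled tumors of mice that express V5-tagged EA1 by ChIP-seq, and the series holds 16 samples, 4 for each of V5, RNAPOL2, H3K27ac and input. The study's methods name more V5 and RNAPOL2 samples than the labels, and the samples behind each list are not given in the sources used here. Per the labels and the study's methods, reads were aligned to mm10 with BWA-MEM (BWA 0.7.10-r789 and MACS2 2.2.6 in the submitters' processing notes), duplicates were removed, peaks were called against input with the broad option for H3K27ac, and denylisted regions were discarded. The authors deposited 1 list per antibody with a whole-number score per peak, whose scale is not stated, so each deposited score was compared only within its list. Whether samples were pooled before or after calling is not stated either. Group sizes depend on how many weak peaks the calling kept.

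Peaks were classed with GENCODE vM21 (55413 genes and 141730 transcripts as used here), and sequence and additional starts came from RefSeq GRCm38.p6. Host and nearest genes were protein-coding, the nearest by TSS, and a host lay over the peak's middle or, failing that, shared most bases with the peak. Fisher's exact test compared shares, odds ratios carry 95% Wald intervals from their log, and strata (5 by 5 for width and score, 5 for GC, 10 for TSS distance) were combined by Mantel-Haenszel. The groups were distal with neither mark, distal with both, and promoter with RNAPOL2. Peaks named were the 6 with the highest H3K27ac or RNAPOL2 score, the 4 widest, the 4 farthest from a TSS and those at the limits, and genes named were the 10 with the most peaks and the listed genes. Some genes that these rules name are not reported here. The members and lists were chosen with earlier results of these data known. Python 3.11.15, numpy 2.4.6, pandas 2.3.3, scipy 1.17.1, statsmodels 0.14.6 and matplotlib 3.10.9 were used, and the functions were tested on simulated data.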

Additional observations from a re-analysis of the deposited data

How the results depend on the processing

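The odds ratios of 11 shares against acetylation-only distal peaks were computed under up to 17 alternatives, and the added tests were not, apart from strata for 3′ UTR overlap and RefSeq starts inside peaks. Exon overlap (1.98 to 3.3), gene ends (2.25 to 4.07), CpG island criteria (3.64 to 16.1) and chromosome X (2.42 to 5.15) kept their direction and passed under all of theirs. The share inside genes was the least stable. It turned to 0.671 with the upper 50% of RNAPOL2 peaks and to 0.986 with the upper 50% of H3K27ac peaks, and did not pass with RNAPOL2 over the middle base (1.12), no V5 within 5 kb (1.02), no RNAPOL2 peak that reaches a promoter window (1.1) or without the 10 genes with the most peaks (1.06). RNAPOL2 at the host promoter gave 0.997 with the upper 50% of RNAPOL2 peaks. With the upper 50% of H3K27ac peaks, which left 625 peaks, it gave 1.44, V5 at the nearest promoter 1.1, clusters 1.18, V5 in the cluster 1.27 and TGACGTCA 0.932, and none of these passed. Over the whole peak, where wider peaks hold more sequence, AP1 turned to 1.21 and TGACGTCA passed before adjustment at 1.89. The causes were not tested.

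The number of RNAPOL2-only distal peaks was 1750 and 1108 with promoter windows of 1 and 5 kb, 1808 with coding TSSs only, 1153 with RNAPOL2 over the middle base, 343 with the upper 50% of RNAPOL2 peaks and 1136 with no V5 within 5 kb. It was 1175 without RefSeq starts within 3 kb, 1238 without RNAPOL2 peaks that reach a promoter window and 1273 without the 10 genes with the most peaks, 3 alternatives chosen after seeing the data. Of the 20 motif searches other than AP1 and TGACGTCA, adjusted among themselves, 5 differed from acetylation-only distal peaks. This count was 3 with a window of 5 kb, 9 with coding TSSs only, 10 and 3 with the upper 50% of RNAPOL2 or H3K27ac peaks, 2 without RefSeq starts, 17 over the whole peak, and 1 over strata of width and score or of GC content. Listed genes with a peak numbered 37, and 16 with the upper 50% of RNAPOL2 peaks.

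No paired analysis was possible because each antibody has 1 peak list with no value per sample, so the replicate numbers that the labels share carry no values. No sample was left out in turn, for the same reason, and RNAPOL2 or V5 binding under the peak threshold is not seen in these lists.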
